A study of Homo sapiens with 4 samples.

Results

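The genes described here are 39 genes of the unfolded protein response and of the response to amino acid shortage, chosen by gene symbol from known roles in these responses. Earlier results of these data were known when they were chosen. They were followed across 4 arrays of human gastric carcinoma cells. All 39 had a row among the 18417 genes named in the deposited table, and all 39 were among the 14547 genes whose mean level passed the signal minimum for testing. By role they comprised 3 sensors of endoplasmic reticulum (ER) stress, 8 stress transcription factors, 13 ATF4 targets (7 enzymes and transporters of amino acid and one-carbon metabolism, and 6 feedback regulators and effectors), 12 ER chaperones and folding enzymes and 3 genes of ER-associated degradation. The groups were the round 2 and round 1 ovarian metastases, with 1 array each, set against the round 2 and round 1 stomach wall tumours, also with 1 array each. All arose from SNU-16, a gastric carcinoma cell line that grows in suspension, implanted into the stomach wall of BALB/c nude mice, which lack a thymus and hence most T cells. Cells taken from the round 1 stomach tumour or ovarian metastasis were cultured and implanted again to give the round 2 tumour of the same site, so the arrays of a site are successive passages of 1 lineage and their spread may be partly technical. Total RNA came from pellets of cells kept in RPMI-1640 with serum.

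The ER folds secreted and membrane proteins, and unfolded proteins there are sensed by IRE1 (the product of ERN1), PERK (EIF2AK3) and ATF6. IRE1 splices the mRNA of XBP1, and ATF6 is cut to release a transcription factor; both then bind ER stress elements and raise chaperones and degradation genes. PERK phosphorylates the translation factor eIF2, as the kinase GCN2 does when amino acids run short, and this favours translation of ATF4, which turns on amino acid synthesis and import, CHOP (DDIT3) and feedback genes such as TRIB3. ATF4 targets can therefore move with or without the ER chaperones. XBP1 splicing, ATF6 cleavage and the translation of ATF4 are not read by mRNA levels of this kind.

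The 6 epithelial markers of the cells all passed the signal minimum, with means between 11.57 and 12.93 on the log2 scale, and the 4 array medians lay between 6.81 and 6.84. Of the markers of cells a tumour could carry from its host, 5 of 8 for leukocytes, 3 of 6 for endothelium, 4 of 6 for fibroblasts, 4 of 6 for ovarian stroma and follicle and 2 of 5 for plasma cells passed it. Of all 18417 named genes 14547 passed it. The probe sets are for human genes and the hosts were mice, so these markers cannot show whether host cells were present. The log2 of the summed linear levels of the ovarian markers was 9.63 (round 2) and 9.94 (round 1) on the ovary arrays, against 9.58 (round 2) and 9.96 (round 1) on the stomach arrays, and ZP3, the egg coat protein gene among them, read 8.38 (round 2) and 9.04 (round 1) in ovary, against 8.41 (round 2) and 9.01 (round 1) in stomach. The labels of the round 2 samples contradict themselves: the stomach sample is described as cultured from ovary, and the ovary sample as a tumour in the stomach. Titles and tissue entries were followed here. If the round 2 labels were exchanged, the difference between sites would become what is called the interaction below with its sign turned, and the difference between rounds would stay as it is.

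In limma's test no gene passed an adjusted p of 0.05 between sites, between rounds or for the interaction, so 0.0% of the 14547 genes tested were called in each and no member was called in any. The smallest adjusted p of a member was 1.0 between sites, 0.287 between rounds and 1.0 for the interaction. Without adjustment, 6 of the 39 members passed p of 0.05 as higher in ovary and 0 as lower, where 1.58% of all genes tested were higher and 1.02% lower. Between rounds 5 members passed unadjusted as higher in round 2 and 2 as lower, where 7.64% of all genes were higher and 7.33% lower. The levels and differences that follow are therefore descriptions of 4 arrays, given on the log2 scale, with the standard error (SE) of limma for the differences. The fit between sites held no term for round, and the fit between rounds held none for site. Each SE therefore also holds the other difference as residual spread. In RNA from whole cell pellets, more cells carrying a transcript and more transcript per cell cannot be told apart.

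**Figure D1:**
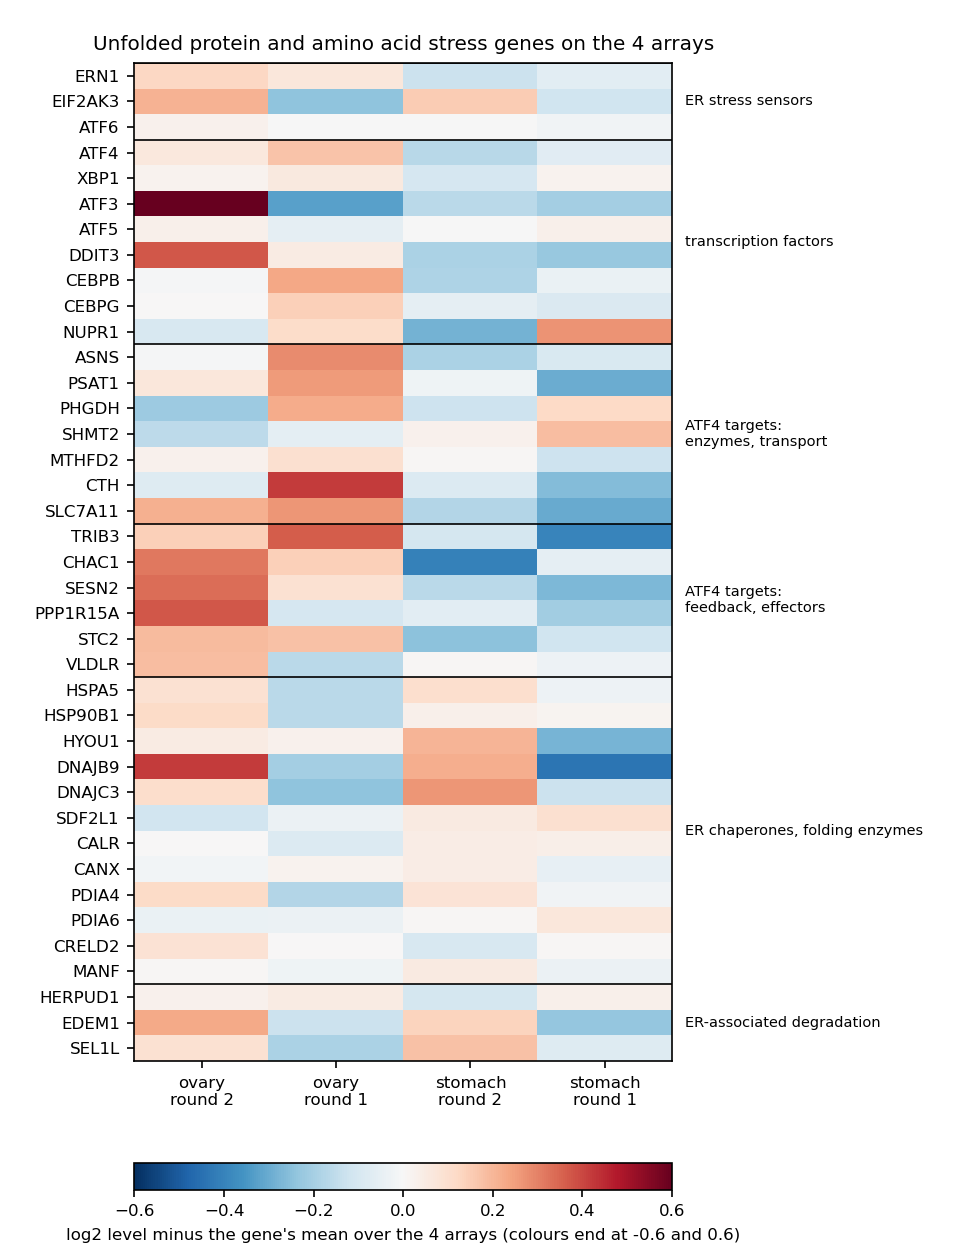
Deviation of each of the 39 genes from its own mean over the 4 arrays, in log2 units, with 1 column per array and rows grouped by role. PSAT1, SLC7A11, TRIB3, CHAC1, SESN2 and STC2 are red on both ovary arrays and blue on both stomach arrays, and the ER genes DNAJB9, DNAJC3, EDEM1 and SEL1L are red in round 2 and blue in round 1 at both sites.

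Between sites, both ovary arrays stood above both stomach arrays for 9 of the 13 ATF4 targets and below them for 1, where 13.3% of all genes tested stood above and 11.2% below. The 9 included CTH and MTHFD2, whose ovary minus stomach gaps in round 2 were only 0.0021 and 0.020. The second probe set of MTHFD2 overlapped between sites. The median site difference of the 13 (ovary minus stomach) was 0.32, with 0.18 in round 2 and 0.30 in round 1, and that of all genes tested was 0.0016. The 2 roles among the 13 differed by round. The median of the 7 enzymes and transporters was 0.020 in round 2 and 0.37 in round 1. That of the 6 feedback genes and effectors was 0.44 in round 2 and 0.25 in round 1. Among the 15 ER chaperones and degradation genes, 0 had both ovary arrays above and 3 had both below, and their median site difference was -0.046, with -0.042 in round 2 and -0.11 in round 1. That median lay between the lower and upper quartiles of all genes, -0.074 and 0.082, which are a spread of single genes and not of list medians. It came to 0.056 without the round 1 ovary array and 0.025 without the round 2 stomach array. Without the round 1 ovary array the median of the ATF4 targets was 0.23.

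Between rounds, both round 2 arrays stood above both round 1 arrays for 9 of the 15 ER chaperones and degradation genes and below for 1, where 22.2% of all genes tested stood above and 26.8% below. Their median round difference (round 2 minus round 1) was 0.15, with 0.081 in ovary and 0.093 in stomach, and that of all genes tested was -0.019. It was 0.064 without the round 1 ovary array, where the median of the ATF4 targets was 0.14. Of the 13 ATF4 targets, 2 had both round 2 arrays above and 1 both below, with a median of 0.030, made up of -0.071 in ovary and 0.11 in stomach. That small median took either sign when an array was left out and was -0.010 after quantile normalization. The count of 2 became 8 without the round 1 ovary array, where 33.5% of all genes tested stood above. It became 5 without the round 2 stomach array, where 34.9% of all genes tested did. No test of the difference between these lists was made.

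**Figure D2:**
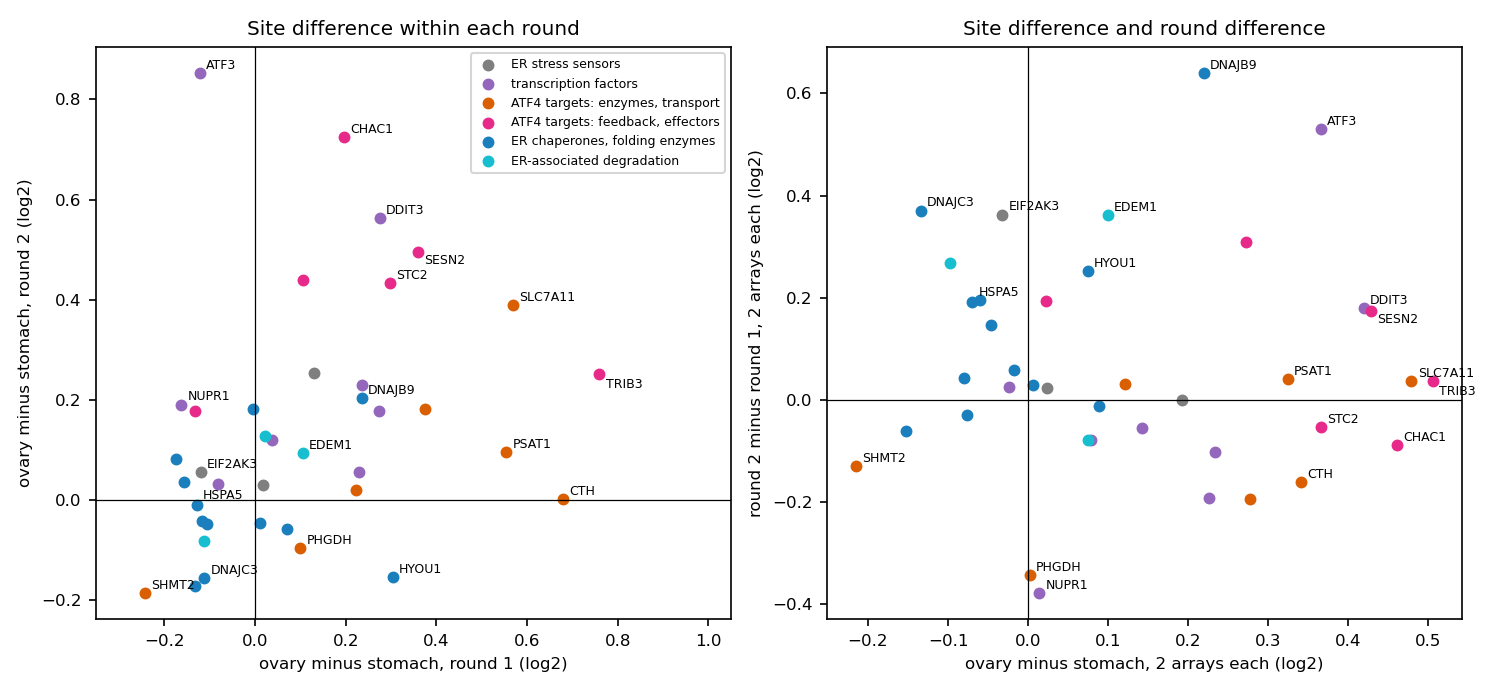
Differences of the 39 genes, coloured by role. The left panel sets the ovary minus stomach difference of round 2 (vertical axis) against that of round 1 (horizontal axis), and the right panel sets the round difference (vertical) against the site difference (horizontal), each in log2 units; TRIB3, SLC7A11, CHAC1 and SESN2 lie at the right of the right panel and DNAJB9 at its top.

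Of the 3 sensors, ERN1, the kinase and endoribonuclease IRE1, read 9.05 (round 2) and 8.99 (round 1) in ovary, against 8.80 (round 2) and 8.86 (round 1) in stomach. Its groups did not overlap, and the site difference was 0.19 with an SE of 0.090. EIF2AK3, which encodes PERK, separated the rounds instead, with 10.22 (ovary) and 10.16 (stomach) in round 2, against 9.77 (ovary) and 9.89 (stomach) in round 1. Its round difference was 0.36 with an SE of 0.081 and an adjusted p of 0.287 in limma. ATF6 lay between 10.83 and 10.87 on all 4 arrays, and its differences between sites and between rounds were both 0.023.

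ATF4, the factor that gives the amino acid branch its name, has 2 probe sets, and they disagreed. The one with the higher mean read 10.63 (round 2) and 10.74 (round 1) in ovary, against 10.40 (round 2) and 10.50 (round 1) in stomach, a site difference of 0.23 with an SE of 0.098 and no overlap. The other read 10.42 (round 2) and 10.13 (round 1) in ovary, against 10.05 (round 2) and 10.21 (round 1) in stomach, so that ovary was higher by 0.36 in round 2 and lower in round 1, by -0.074. The direction of ATF4 mRNA in round 1 thus depended on the probe set.

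DDIT3, which encodes the pro-apoptotic factor CHOP, was at 9.00 (round 2) and 8.68 (round 1) in ovary, against 8.44 (round 2) and 8.41 (round 1) in stomach. Both ovary arrays lay above both stomach arrays, with a site difference of 0.42, an SE of 0.14 and an unadjusted p of 0.0305 in limma. CEBPB and CEBPG, bZIP partners of ATF4, were also higher on both ovary arrays. CEBPB read 9.42 (round 2) and 9.66 (round 1) in ovary, against 9.24 (round 2) and 9.38 (round 1) in stomach. CEBPG read 9.77 (round 2) and 9.91 (round 1) in ovary, against 9.71 (round 2) and 9.68 (round 1) in stomach, a gap of 0.056 in round 2. XBP1, summed over its spliced and unspliced forms, differed between sites by 0.079 with an SE of 0.095, and its round 2 ovary and round 1 stomach arrays both read 11.38.

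ATF3, a stress-induced repressor and activator that many signals raise, stood out on 1 array. It read 8.91 (round 2) and 7.89 (round 1) in ovary, against 8.05 (round 2) and 8.01 (round 1) in stomach. Only the round 2 ovary array was high, with gaps between sites of 0.85 in round 2 and -0.12 in round 1. ATF5, a relative of ATF4, lay between 7.46 and 7.54 on all 4 arrays. NUPR1, a small stress-induced nuclear protein, separated the rounds, with 10.56 (ovary) and 10.37 (stomach) in round 2, against 10.76 (ovary) and 10.92 (stomach) in round 1. It was lower in round 2 by a difference of -0.38 with an SE of 0.11.

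ATF4 with a C/EBP partner binds the C/EBP-ATF response element, for which the letters TGATGNAA were searched on both strands of RefSeq promoter windows of 300 bases, 250 before and 50 after each start (GRCh38.p14). Of the 39 members 36 had a window; NUPR1, SLC7A11 and SHMT2 had none. The letters were found in 4.46% of the 27305 genes with a window and in 5 members, CHAC1, ASNS, ATF3, CEBPG and HERPUD1. Of the 11 ATF4 targets with a window, 2 had them, CHAC1 and ASNS. The others, among them TRIB3, SESN2, STC2 and PSAT1, which were also higher in ovary, had none. The stricter ATTGCATCA, whose reverse complement contains the first motif, was found in 0.293% of genes and in 0 members. The 250 bases before the start are printed for CHAC1 (chr15:40953221-40953470, plus strand) and ASNS (chr7:97872409-97872658, minus strand) as a feedback gene and an enzyme that were higher in ovary, and 60 bases for ATF3 (chr1:212565190-212565249, plus strand), which was high on 1 array. They read 5′ to 3′ on the gene's strand, and capitals mark the fixed letters of the motif or of its reverse complement. A match here is a description of the letters and not a binding site.
CHAC1: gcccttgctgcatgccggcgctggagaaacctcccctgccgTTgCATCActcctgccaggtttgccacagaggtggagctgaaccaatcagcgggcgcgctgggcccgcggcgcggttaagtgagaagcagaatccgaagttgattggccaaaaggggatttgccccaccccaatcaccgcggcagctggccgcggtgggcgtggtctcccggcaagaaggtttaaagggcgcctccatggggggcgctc
ASNS: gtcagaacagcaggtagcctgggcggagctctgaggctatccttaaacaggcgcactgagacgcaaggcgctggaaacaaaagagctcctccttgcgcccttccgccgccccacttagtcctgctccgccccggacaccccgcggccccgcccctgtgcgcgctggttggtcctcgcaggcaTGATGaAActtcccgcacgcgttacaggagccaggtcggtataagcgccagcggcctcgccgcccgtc
ATF3: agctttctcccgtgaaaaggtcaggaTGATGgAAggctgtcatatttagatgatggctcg

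The 6 feedback genes and effectors held the widest site differences, with a median of 0.40 (0.44 in round 2 and 0.25 in round 1). TRIB3, a pseudokinase that restrains ATF4 and AKT, was at 9.15 (round 2) and 9.37 (round 1) in ovary, against 8.90 (round 2) and 8.61 (round 1) in stomach. The groups did not overlap, and the gap was 0.25 in round 2 and 0.76 in round 1. CHAC1, whose enzyme cleaves glutathione, was at 9.97 (round 2) and 9.80 (round 1) in ovary, against 9.25 (round 2) and 9.60 (round 1) in stomach. It ran the other way, with 0.72 in round 2 and 0.20 in round 1.

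SESN2, a leucine sensor that holds back mTORC1, read 9.58 (round 2) and 9.34 (round 1) in ovary, against 9.08 (round 2) and 8.98 (round 1) in stomach. STC2, a secreted glycoprotein, read 7.82 (round 2) and 7.80 (round 1) in ovary, against 7.38 (round 2) and 7.50 (round 1) in stomach. Both kept the site difference at a like size in the 2 rounds, at 0.50 and 0.43 in round 2 and at 0.36 and 0.30 in round 1. Their site differences had SEs of 0.12 and 0.094, and unadjusted p of 0.0191 and 0.0135 in limma. SESN2 is also a p53 target, and the list of other p53 targets had a median site difference of 0.43 in round 2 and -0.045 in round 1; its part in the level of SESN2 was not tested.

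PPP1R15A, the GADD34 subunit that reverses eIF2 phosphorylation, was at 8.61 (round 2) and 8.13 (round 1) in ovary, against 8.17 (round 2) and 8.02 (round 1) in stomach. Ovary was higher in each round, but the groups overlapped because round 1 ovary lay below round 2 stomach. VLDLR, a lipoprotein receptor, read 7.81 (round 2) and 7.46 (round 1) in ovary, against 7.63 (round 2) and 7.59 (round 1) in stomach, higher in ovary in round 2 and lower in round 1.

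**Figure D3:**
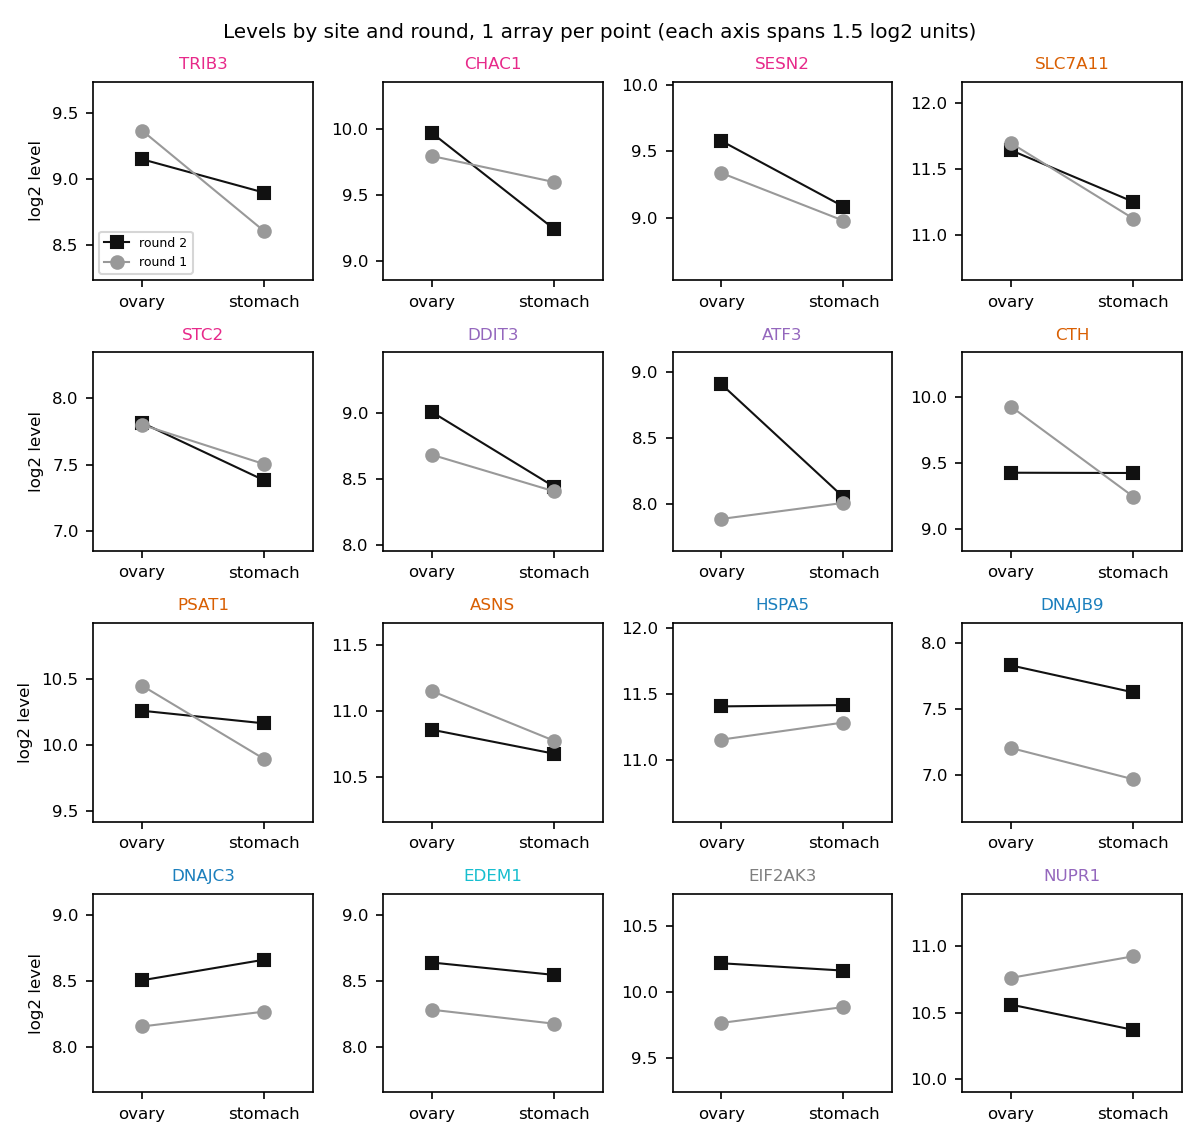
Log2 levels of 16 of the genes, 1 array per point, with ovary at the left and stomach at the right of each panel, black squares for round 2 and grey circles for round 1; every vertical axis spans 1.5 log2 units. TRIB3, CHAC1, SESN2, SLC7A11, STC2 and DDIT3 are higher in ovary than in stomach in both rounds, and the lines of DNAJB9, DNAJC3, EDEM1 and EIF2AK3 lie apart by round.

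Among enzymes and transport, SLC7A11, the cystine importer of system xc-, was at 11.64 (round 2) and 11.70 (round 1) in ovary, against 11.25 (round 2) and 11.13 (round 1) in stomach. Its site difference of 0.48, with an SE of 0.096, had the smallest unadjusted p of the 39 genes, 0.0052 in limma, with an adjusted p of 1.0, or 0.743 with the round as a replicate block. ASNS, asparagine synthetase, read 10.86 (round 2) and 11.15 (round 1) in ovary, against 10.68 (round 2) and 10.78 (round 1) in stomach, and its groups did not overlap. CTH, cystathionine gamma-lyase, which makes cysteine, differed between sites in round 1 and hardly in round 2. It read 9.43 (round 2) and 9.93 (round 1) in ovary, against 9.43 (round 2) and 9.25 (round 1) in stomach, which puts the gap between sites at 0.0021 in round 2 and 0.68 in round 1.

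The serine and one-carbon enzymes did not share 1 pattern. PSAT1, which makes phosphoserine, read 10.26 (round 2) and 10.45 (round 1) in ovary, against 10.17 (round 2) and 9.90 (round 1) in stomach, with most of its difference in round 1 (0.55, against 0.095 in round 2). PHGDH, the enzyme ahead of it, differed between sites by 0.0022 and separated the rounds, with 11.19 (ovary) and 11.28 (stomach) in round 2, against 11.63 (ovary) and 11.53 (stomach) in round 1. SHMT2, the mitochondrial serine hydroxymethyltransferase, went the other way between sites, at 11.55 (round 2) and 11.65 (round 1) in ovary, against 11.73 (round 2) and 11.89 (round 1) in stomach. It was the ATF4 target with both ovary arrays below both stomach arrays, by a site difference of -0.21 with an SE of 0.11. MTHFD2, a mitochondrial folate enzyme, differed by 0.020 in round 2 and 0.22 in round 1, and its second probe set overlapped between sites.

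In single arrays, CTH and TRIB3 were at least 1.5-fold apart between sites in round 1, where 2.03% of all genes tested were at least that far apart in either direction. ATF3 and CHAC1 were so in round 2, where 1.22% were. All 4 of these gaps were higher in ovary. The interaction, which asks whether the site difference of round 2 differs from that of round 1, passed unadjusted p of 0.05 in 0 of 39 members and in 1.33% of all genes tested. CTH had the smallest unadjusted p in limma among members, 0.151, so a site difference that varied with the round was not detected for any member with 4 arrays. The fit of the interaction held no term for site or round, so those differences counted as residual spread.

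ATF6 and XBP1 act on the ER chaperone genes through the ER stress element, whose letters are CCAAT and CCACG separated by 9 bases. They also act through its second form, ATTGG and CCACG separated by 1 base. On either strand of the windows the first form was found in 0.0916% of genes and in 7 of the 36 members, and the second, added after the other motifs had been searched, in 0.0696% of genes and in 3 members. Together they were found in 44 of 27305 genes, or 0.161%, and 10 of these genes were members. They were 8 of the 12 ER chaperones (HSPA5, HSP90B1, CALR, CANX, CRELD2, PDIA6, HYOU1 and SDF2L1), HERPUD1 and XBP1, and 0 of the 11 ATF4 targets with a window. The XBP1 site TGACGTGG was found in 0.927% of genes and in HYOU1 alone among members, where it overlaps the second form. The members had been listed for roles that were in part learned from these elements, so the shares say nothing new about the factors.

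Printed next are the 250 bases before the start of HSPA5 (chr9:125241344-125241593, minus strand), the best known target of the element, of HYOU1 (chr11:119057206-119057455, minus strand), which has the second form in 2 places, and of HERPUD1 (chr16:56931892-56932141, plus strand), the member with letters of both branches. Shorter stretches follow for HSP90B1 (chr12:103930208-103930347, plus strand), with the first form in 2 places, CALR (chr19:12938364-12938422, plus strand), CANX (chr5:179698758-179698816, plus strand), CRELD2 (chr22:49918534-49918592, plus strand), SDF2L1 (chr22:21642090-21642148, plus strand) and XBP1 (chr22:28800583-28800641, minus strand), so that the spacing can be compared. Capitals mark the fixed letters of each match, or of its reverse complement.
HSPA5: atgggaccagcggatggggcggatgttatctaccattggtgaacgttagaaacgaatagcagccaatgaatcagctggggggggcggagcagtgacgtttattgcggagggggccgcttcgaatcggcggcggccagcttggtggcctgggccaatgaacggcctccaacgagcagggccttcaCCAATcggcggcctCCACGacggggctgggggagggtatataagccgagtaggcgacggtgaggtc
HYOU1: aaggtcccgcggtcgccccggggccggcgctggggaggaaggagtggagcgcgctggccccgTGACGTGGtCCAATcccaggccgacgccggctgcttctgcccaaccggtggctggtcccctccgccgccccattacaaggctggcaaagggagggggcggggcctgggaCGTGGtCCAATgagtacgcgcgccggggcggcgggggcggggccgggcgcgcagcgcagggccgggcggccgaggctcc
HERPUD1: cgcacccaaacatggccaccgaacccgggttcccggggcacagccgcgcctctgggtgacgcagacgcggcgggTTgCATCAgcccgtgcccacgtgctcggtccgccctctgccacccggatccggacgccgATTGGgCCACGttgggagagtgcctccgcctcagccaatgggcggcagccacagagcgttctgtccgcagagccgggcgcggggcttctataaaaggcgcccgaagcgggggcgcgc
HSP90B1: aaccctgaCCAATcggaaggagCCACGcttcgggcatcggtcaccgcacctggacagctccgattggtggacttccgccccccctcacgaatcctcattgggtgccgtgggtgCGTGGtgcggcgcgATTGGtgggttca
CALR: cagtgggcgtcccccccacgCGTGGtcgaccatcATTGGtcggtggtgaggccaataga
CANX: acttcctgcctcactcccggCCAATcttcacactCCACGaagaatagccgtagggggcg
CRELD2: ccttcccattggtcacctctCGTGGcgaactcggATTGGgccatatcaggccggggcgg
SDF2L1: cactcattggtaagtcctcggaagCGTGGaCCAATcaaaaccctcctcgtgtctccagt
XBP1: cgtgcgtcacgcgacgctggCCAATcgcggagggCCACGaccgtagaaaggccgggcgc

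HSPA5, the chaperone BiP that holds the sensors inactive, read 11.41 (round 2) and 11.16 (round 1) in ovary, against 11.42 (round 2) and 11.29 (round 1) in stomach. The sites overlapped, with a site difference of -0.069 and an SE of 0.13, while both round 2 arrays lay above both round 1 arrays, by 0.19 with an SE of 0.080. HSP90B1, the ER form of the HSP90 chaperones, gave a like picture, at 11.96 (ovary) and 11.88 (stomach) in round 2, against 11.69 (ovary) and 11.86 (stomach) in round 1. PDIA4, a disulfide isomerase, read 11.48 (ovary) and 11.44 (stomach) in round 2, against 11.19 (ovary) and 11.34 (stomach) in round 1. For both genes the round difference was mostly that of the ovary lineage, 0.27 and 0.29, against 0.018 and 0.099 in stomach.

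DNAJB9, the co-chaperone ERdj4 and a classic XBP1 target, showed the widest round difference of the 39 genes. It was at 7.83 (ovary) and 7.63 (stomach) in round 2, against 7.21 (ovary) and 6.97 (stomach) in round 1, a difference of 0.64 with an SE of 0.12. The unadjusted p in limma was 0.0043 and the adjusted p 0.287, or 0.206 with the site as a replicate block. Within each round DNAJB9 was higher in ovary, by 0.20 in round 2 and 0.24 in round 1, but the round difference made the sites overlap. DNAJC3, the PERK inhibitor P58IPK, read 8.50 (ovary) and 8.66 (stomach) in round 2, against 8.16 (ovary) and 8.27 (stomach) in round 1. It stood with DNAJB9 between rounds and opposite to it between sites, with site differences of -0.16 in round 2 and -0.11 in round 1.

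HYOU1, a large ER chaperone and exchange factor of BiP, was low on 1 array, at 8.64 (round 2) and 8.62 (round 1) in ovary, against 8.80 (round 2) and 8.31 (round 1) in stomach. The 3 ER chaperones with both ovary arrays below both stomach arrays were SDF2L1, CALR and PDIA6. SDF2L1, which keeps BiP substrates soluble, read 7.46 (round 2) and 7.54 (round 1) in ovary, against 7.63 (round 2) and 7.67 (round 1) in stomach. CALR, the lectin chaperone calreticulin, read 10.46 (round 2) and 10.38 (round 1) in ovary, against 10.50 (round 2) and 10.50 (round 1) in stomach. PDIA6, an isomerase that also damps the sensors, read 11.35 (round 2) and 11.35 (round 1) in ovary, against 11.40 (round 2) and 11.46 (round 1) in stomach. Their site differences of -0.15, -0.080 and -0.077 were each under 2 SEs.

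CANX, the membrane-bound lectin chaperone calnexin, differed between sites by 0.0056 and between rounds by 0.029. MANF, a secreted ER protein, differed between sites by -0.018, and CRELD2, a disulfide isomerase-like ER protein, by 0.089. None of these 3 separated the sites.

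Each of the 3 degradation genes had sites that overlapped. EDEM1, which directs misfolded glycoproteins out of the ER, read 8.64 (ovary) and 8.55 (stomach) in round 2, against 8.28 (ovary) and 8.18 (stomach) in round 1. SEL1L, the partner of the ubiquitin ligase HRD1, read 10.14 (ovary) and 10.23 (stomach) in round 2, against 9.86 (ovary) and 9.97 (stomach) in round 1. Both separated the rounds, by 0.36 and 0.27, each with an SE of 0.082. HERPUD1, a ubiquitin-like scaffold of the same ligase, was the member of the 15 with both round 2 arrays below both round 1 arrays, by -0.079 with an SE of 0.080. Its round 2 values were 10.55 (ovary) and 10.42 (stomach), against 10.57 (ovary) and 10.55 (stomach) in round 1.

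The 7 members with an unadjusted p under 0.05 between rounds were thus DNAJB9, EIF2AK3, EDEM1, DNAJC3 and SEL1L, higher in round 2, and PHGDH and NUPR1, lower in round 2. With 7.64% of all genes higher and 7.33% lower at that threshold, the 5 and 2 of 39 members are to be read against a background in which the rounds differed widely. Of the 4 ovarian markers tested, ZP3 and FOXL2 were lower in round 2 at both sites, STAR was higher at both and AMH differed by 0.030 in ovary and -0.19 in stomach, and their part in the round differences was not tested.

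Genes of the same pathways outside the 39 were counted from further lists, also chosen with earlier results of these data known. The counts are to be read against the 13.3% of all genes tested that were separated (both arrays of each site apart) as higher in ovary and the 11.2% as lower. Their medians between sites and between rounds kept their sign after quantile normalization and after centring on medians except where given. Of 12 cytosolic aminoacyl-tRNA synthetases known to respond to ATF4, all 12 had a site difference above 0, 9 had both ovary arrays above both stomach arrays and 0 had both below. Their median was 0.16, with 0.089 in round 2 and 0.25 in round 1. Of all 14547 genes tested, 7356 had a site difference above 0. The 3 named by array signal, GARS1, IARS1 and SARS1, had site differences of 0.13, 0.21 and 0.15. Of 7 synthetases outside that group, 6 also had a site difference above 0 and 1 had both ovary arrays above. Their median was 0.076, with -0.0175 in round 2 and 0.11 in round 1. Among the 10 and 6 of these synthetases with a promoter window, TGATGNAA was present in 7 and in 0. The lists were split by known response to ATF4, which binds this element, so these counts say nothing new about ATF4.

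The 9 amino acid transporters tested had a median site difference of 0.15 (0.087 in round 2 and 0.11 in round 1), with 6 separated as higher in ovary and 0 as lower. SLC7A5, the leucine transporter LAT1, read 11.20 (round 2) and 11.73 (round 1) in ovary, against 11.18 (round 2) and 11.12 (round 1) in stomach, so that only the round 1 ovary array stood far up. SLC38A1 and SLC38A2, glutamine and neutral amino acid carriers, differed by 0.056 and 0.035. Of 17 further ATF4 targets, 5 were separated as higher in ovary and 1 as lower, with a median of 0.10 (0.023 in round 2 and 0.18 in round 1). GDF15, a stress-induced cytokine, read 11.47 (round 2) and 10.65 (round 1) in ovary, against 10.48 (round 2) and 10.47 (round 1) in stomach. NDRG1, also raised by hypoxia, was the one separated as lower, by -0.19, and ALDH1L2, a mitochondrial folate enzyme, differed by -0.077. The eIF2 kinases, eIF2 and eIF2B subunits, 12 genes, had a median of 0.042, with EIF2AK1, EIF2S3 and PPP1R15B at -0.10, 0.036 and -0.0078.

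Of 11 further ER folding genes tested, 0 were separated as higher in ovary and 3 as lower, with a median of -0.062, and of 19 further degradation and export genes 0 and 4 were, with a median of -0.057. Over all genes tested 11.2% were separated as lower. Both medians lay between the quartiles of all genes, -0.074 and 0.082, again a spread of single genes and not of list medians. ERO1A, the ER oxidase, read 11.67 (round 2) and 11.27 (round 1) in ovary, against 11.94 (round 2) and 11.69 (round 1) in stomach. P4HB and PPIB, a disulfide isomerase and a proline isomerase, differed by -0.090 and -0.054. SEC61A1, SEC24D and KDELR1, of the translocation channel, the export coat and the retrieval receptor, differed by -0.057, -0.25 and -0.21. Between rounds these 2 lists had medians of 0.18 and 0.12.

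Mitochondrial chaperones and proteases, which have a stress response of their own that also runs through ATF4, had 4 of 10 separated as higher in ovary and 0 as lower, with a median of 0.12. HSPA9 and TRAP1 differed by 0.24 and 0.16 and HSPD1 by 0.053. NRF2 targets had a median site difference of 0.015 (-0.0082 after quantile normalization), with 3 of 12 separated as higher in ovary and 1 as lower. Their median round difference was 0.00013 (-0.044 after quantile normalization). SLC7A11 is also a target of NRF2, and the part of NRF2 in its level was not tested. NQO1, ME1 and PGD, of quinone and NADPH metabolism, differed by -0.067, 0.032 and -0.15.

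The round 2 ovary array that held the high ATF3 level also held high levels of many immediate early and p53 target genes. The 13 immediate early genes had a median site difference of 0.46 in round 2 and -0.071 in round 1, and 8 of them had both round 2 arrays above both round 1 arrays, where 22.2% of all genes did. FOS read 9.67 (round 2) and 8.94 (round 1) in ovary, against 10.19 (round 2) and 9.32 (round 1) in stomach. FOS and ZFP36, singled out after their values were seen, were lower on the ovary array than on the stomach array of round 2, and MYC was lower in round 2 at both sites. EGR1, IER3 and MYC, a zinc finger factor, a stress gene and the amplified oncogene of this line, differed between sites by 0.29, 0.27 and 0.23. The 13 p53 targets had medians of 0.43 in round 2 and -0.045 in round 1. CDKN1A, the cell cycle inhibitor p21, read 9.52 (round 2) and 8.35 (round 1) in ovary, against 8.39 (round 2) and 8.39 (round 1) in stomach. MDM2 read 11.75 (round 2) and 10.60 (round 1) in ovary, against 10.93 (round 2) and 10.71 (round 1) in stomach, and DDB2, a DNA repair gene, differed by 0.14. The part of these programmes in the levels of ATF3, PPP1R15A, DDIT3 and GDF15, which share the high round 2 ovary value, was not tested.

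**Figure D4:**
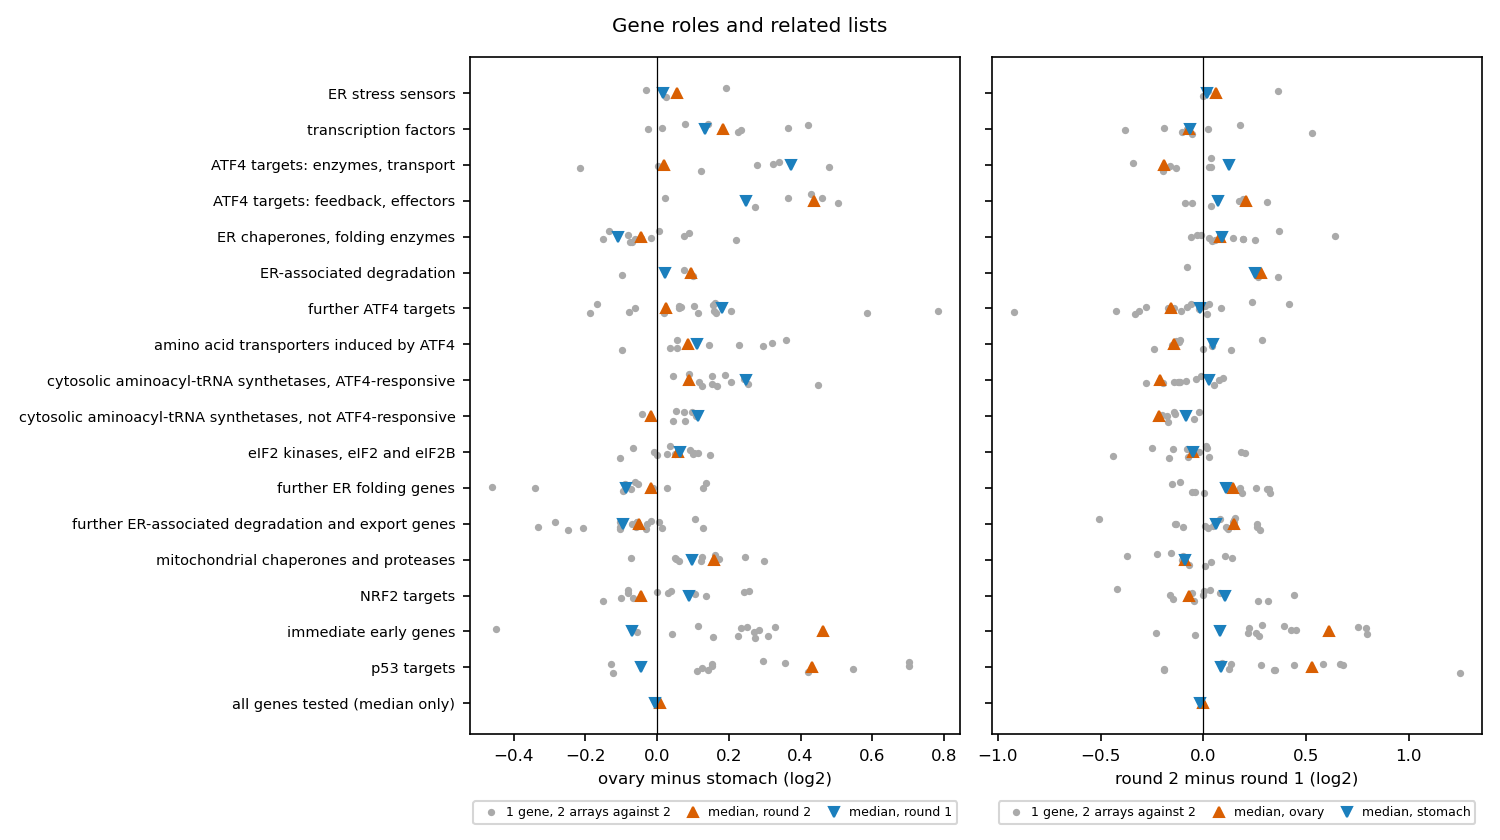
Site differences (left panel) and round differences (right panel) in log2 units by role and by further list, with a grey point per gene tested and triangles for the list medians of the separate rounds or sites. The lists of ATF4 targets, transporters and ATF4-responsive synthetases lie mostly right of 0 between sites, while the ER lists lie near or left of 0 between sites and mostly right of 0 between rounds. Other lists also lie mostly right of 0 between sites. They include mitochondrial chaperones and proteases (9 of 10 genes), immediate early genes and p53 targets (11 of 13 each). The other synthetases (6 of 7) and the eIF2 genes (8 of 12) do so too. Of the NRF2 targets, 6 of 12 lie right of 0.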

How the data were processed

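RNA from cell pellets was biotin-labelled with the WT Terminal Labeling Kit for Affymetrix arrays, per the labels' protocols. The authors' deposited table holds log2 levels by probe set for each of the 4 arrays. The submitters' processing notes name Affymetrix Expression Console, with no version, and how it corrected, normalized and summarized the probes is, as far as the sources used here go, not stated. The values themselves gave the log2 scale and showed no centring per gene. Any scaling between arrays would hide a shift shared by all transcripts. Precision is limited by there being only 4 arrays.

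The platform annotation pairs 19460 of the 33297 rows with a single symbol; 1754 rows with several symbols and 12083 without one were left out. Names were updated by gene identifier through a RefSeq table (GRCh38.p14), which held 19429 of the rows. The probe set with the highest mean stood for a gene, and a gene was tested where its mean passed 5.643, the 30th percentile over rows, which removed 3870. limma 3.58.1 in R 4.3.3 (lmFit, eBayes, two-sided, Benjamini-Hochberg over all genes tested) compared ovary with stomach, round 2 with round 1, and the sum of round 2 ovary and round 1 stomach with the other arrays (interaction), with 2 residual degrees of freedom. The code was tested on simulated data. Replicate numbers are the rounds, shared by both sites; deviations from the site means correlated at 0.411 between arrays of the same round (2 pairs, against 0.101 between arrays of the same site after removing round means), too few pairs to settle a pairing, so the fit with a replicate block is an alternative.

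Further alternatives were other signal minima, quantile normalization, centring on array medians, the mean of a gene's probe sets, a trended prior, an adjusted p of 0.10 and leaving out each array. The other ATF4 probe set and the counts of separated genes under these settings were added after seeing the data. The members, roles and further lists were chosen with earlier results of these data known. All members are named, and of each further list the 3 genes with the highest mean level. Promoters come from RefSeq. Protein sequences were not used here. Figures were drawn with matplotlib 3.10.9.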

Additional observations from a re-analysis of the deposited data

How the results depend on the processing

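Under every alternative run (other signal minima, quantile normalization, centring on medians, the mean of probe sets, a trended prior, an adjusted p of 0.10, the replicate block and leaving out each array) 0 genes were called between sites and 0 between rounds, members included, and likewise for the interaction under those run for it. With a replicate block the smallest adjusted p of a member was 0.743 between sites (SLC7A11) and 0.206 between rounds (DNAJB9), and it changed no call. The interaction with both main effects as a block leaves no residual degrees of freedom and could not be fitted, and it was not run with an array left out. The median site difference of the ATF4 targets ran between 0.23 and 0.36 with 1 array left out, and that of the ER chaperones and degradation genes between -0.092 and 0.056. Between rounds the ATF4 median ran between -0.20 and 0.16 and was -0.010 after quantile normalization, and the ER median ran between 0.064 and 0.17 and was 0.17 after centring on medians. ER genes with ovary above stomach, 0 as reported, numbered 1 after quantile normalization and 2 after centring, where 13.1% and 14.7% of all genes were so. They numbered 1 to 5 with 1 array left out, where fewer arrays separate more genes and 27.8% to 34.0% of all genes were so. ATF4 targets with round 2 above round 1, 2 as reported, numbered 2 to 8 with 1 array left out, where 32.1% to 34.9% of all genes were so. Single differences near 0 had no fixed sign. After quantile normalization the site differences of PHGDH and CANX were -0.00094 and -0.0017 and the round differences of TRIB3 and CRELD2 -0.010 and 0.0096, and after centring the round differences of ERN1 and CRELD2 were 0.023 and 0.011. With 1 array left out the site difference took either sign for 16 members, EIF2AK3 (-0.26 to 0.19), ATF3 (-0.14 to 0.87), ATF5 (-0.065 to 0.016), NUPR1 (-0.26 to 0.29), PHGDH (-0.22 to 0.22), VLDLR (-0.15 to 0.20), HSPA5 (-0.19 to 0.056), HSP90B1 (-0.18 to 0.091), HYOU1 (-0.17 to 0.32), DNAJB9 (-0.11 to 0.55), DNAJC3 (-0.33 to 0.062), CANX (-0.041 to 0.052), PDIA4 (-0.21 to 0.085), MANF (-0.062 to 0.025), EDEM1 (-0.085 to 0.28) and SEL1L (-0.24 to 0.043). The round difference did so for 18, ERN1 (-0.13 to 0.13), ATF4 (-0.22 to 0.015), ATF5 (-0.016 to 0.065), DDIT3 (-0.10 to 0.46), CEBPG (-0.17 to 0.060), PSAT1 (-0.24 to 0.32), MTHFD2 (-0.081 to 0.14), CTH (-0.50 to 0.18), SLC7A11 (-0.25 to 0.32), TRIB3 (-0.34 to 0.42), CHAC1 (-0.45 to 0.27), SESN2 (-0.073 to 0.42), STC2 (-0.27 to 0.16), SDF2L1 (-0.15 to 0.025), CALR (-0.016 to 0.10), CANX (-0.0055 to 0.064), PDIA6 (-0.083 to 0.022) and CRELD2 (-0.10 to 0.078). With the other ATF4 probe set the site difference of ATF4 was 0.14. The causes were not tested.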
